A study of Canis lupus familiaris with 186 samples.

Results

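The genes described here are 55 genes of DNA replication and mitosis, 14 with roles in S phase and 41 with roles in mitosis, measured in 186 primary osteosarcomas of pet dogs. They were chosen by name, as the rows of the count table whose gene symbol is on the list, and each symbol matched a single row of the 37952 in the table. All 55 passed the filter on low counts that left 13422 genes to test. The biopsies belong to the DOG2 cohort and were taken before treatment from dogs with appendicular osteosarcoma, no visible metastasis and no earlier therapy. By their labels, 93 tumors came from the trial COTC021 and 93 from COTC022. After amputation the dogs received adjuvant carboplatin, alone or followed by rapamycin, but the labels do not say which arm a trial number stands for, and all tissue predates that therapy. Age, breed and sex varied between dogs and are not given with the samples used here, and each dog is represented by a single bulk RNA library.

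A cell that divides first copies its DNA in S phase and then separates the copies in mitosis. The genes for the machinery of each step are transcribed in turn, the replication genes largely through E2F factors and the mitotic genes later through the MuvB complex with B-MYB and FOXM1. In a bulk tumor their RNA is therefore commonly read as a measure of how many cells are cycling, and MKI67 is the antigen stained for that purpose in pathology. For bulk samples, however, fewer cells in cycle and less of these RNAs in each cycling cell cannot be told apart.

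Totals per library ranged from 6587631 to 27420857 counts, with a median of 10797162. In 50 libraries the column name holds a doubled low line (__), and their median total was 19440449 against 9851681 in the other 136. They hold 18 tumors of COTC021 and 32 of COTC022, so results are also given within these groups of libraries. The 50 are called deeper below by that median alone. Totals ran from 15803906 to 23214323 in the 50 and from 6587631 to 27420857 in the 136, which hold the deepest library. What the mark in the name stands for is not given in the labels. Each of the 55 genes had at least 10 counts in every library. Markers of osteoblasts were present, with all 8 listed genes passing the filter and a median COL1A1 level of 20240 CPM (counts scaled to a common library size), and the 6 macrophage, 6 muscle and 5 endothelial markers also passed. Of the 6 B and plasma cell markers only JCHAIN passed, and of the 6 erythroid markers of marrow none did.

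Levels below are CPM after TMM scaling, which adjusts each library total so that most genes keep the same level. Spread is the standard deviation (SD) over tumors of log2(CPM + 2), where 2 is the pseudocount. The pseudocount lowers the SD of genes at low levels, so ranks by SD hold on this scale alone. CPM are not divided by gene length and are compared only between tumors, not between genes.

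The 55 genes differed widely between tumors. The smallest SD was 0.365, the middle 0.802 and the largest 0.978, while the median over all 13422 genes was 0.525. MKI67 (chromosome 28, 37271417 to 37300625, build GSD_1.0), the proliferation antigen of the chromosome surface, had the largest SD. Its level was 5.49 CPM in the lowest tumor, 125.9 CPM in the median tumor and 463.6 CPM in the highest. The lowest value, at a z-score of -4.13, lay in COTC022 replicate 14, described below, and the SD was not computed without it. The 90th percentile of MKI67 was 5.79 times its 10th, below the 5.87 of PLK1 and the 5.81 of MYBL2. The next largest SDs were 0.966 for MYBL2 (B-MYB), 0.965 for the spindle protein DLGAP5, 0.957 for CDCA3, which helps destroy the mitotic inhibitor WEE1, and 0.939 for CDC20, an activator of the anaphase-promoting complex. At the other end stood NUSAP1, a microtubule-binding protein of the spindle, with an SD of 0.365, followed by RRM1 with 0.421, MCM7 with 0.544, the kinesin KIF2C with 0.561 and MCM6 with 0.583.

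Among the 14 replication genes, which include the MCM2 to MCM7 helicase, its loader CDC6, its partners CDC45 and GINS2 and the enzymes that make nucleotides, the SD had a median of 0.774, against 0.825 in the 41 mitotic genes. MCM2 had the largest, 0.842, with levels of 11.2, 87.6 and 359.5 CPM in the lowest, median and highest tumor. RRM1, the large subunit of ribonucleotide reductase, had the smallest and ran only from 38.2 to 229.0 CPM around a median of 95.2 CPM. Its partner RRM2, the subunit made in S phase, ran from 8.53 to 353.7 CPM with an SD of 0.809. The 2 subunits of this enzyme differed in spread although both act in the same complex. Of the RRM2 counts, however, 98.4% were not whole, from reads divided between rows, against 0.0% for RRM1. The level of RRM2 is therefore less certain.

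The spread of the mitotic genes is given by role. In the group of cyclins, CDK1 and their degradation, the SD ran from 0.734 for CDK1 to the 0.957 of CDCA3. It ran from 0.833 for TOP2A, the topoisomerase that untangles sister chromatids, to 0.978 among the transcription factors and chromatin proteins. For the spindle checkpoint, which holds anaphase until chromosomes are attached, the ends were TTK with 0.718 and BUB1 with 0.855. PLK4, the kinase of centriole duplication, had 0.684 and PLK1, the main polo-like kinase of mitosis, 0.911. The kinetochore gene NDC80 had 0.687 and CENPF 0.898. The kinesins ran from the 0.561 of KIF2C to 0.929 for KIF20A, and the condensin and cytokinesis genes from 0.686 for NCAPH to 0.914 for ECT2.

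**Figure D1:**
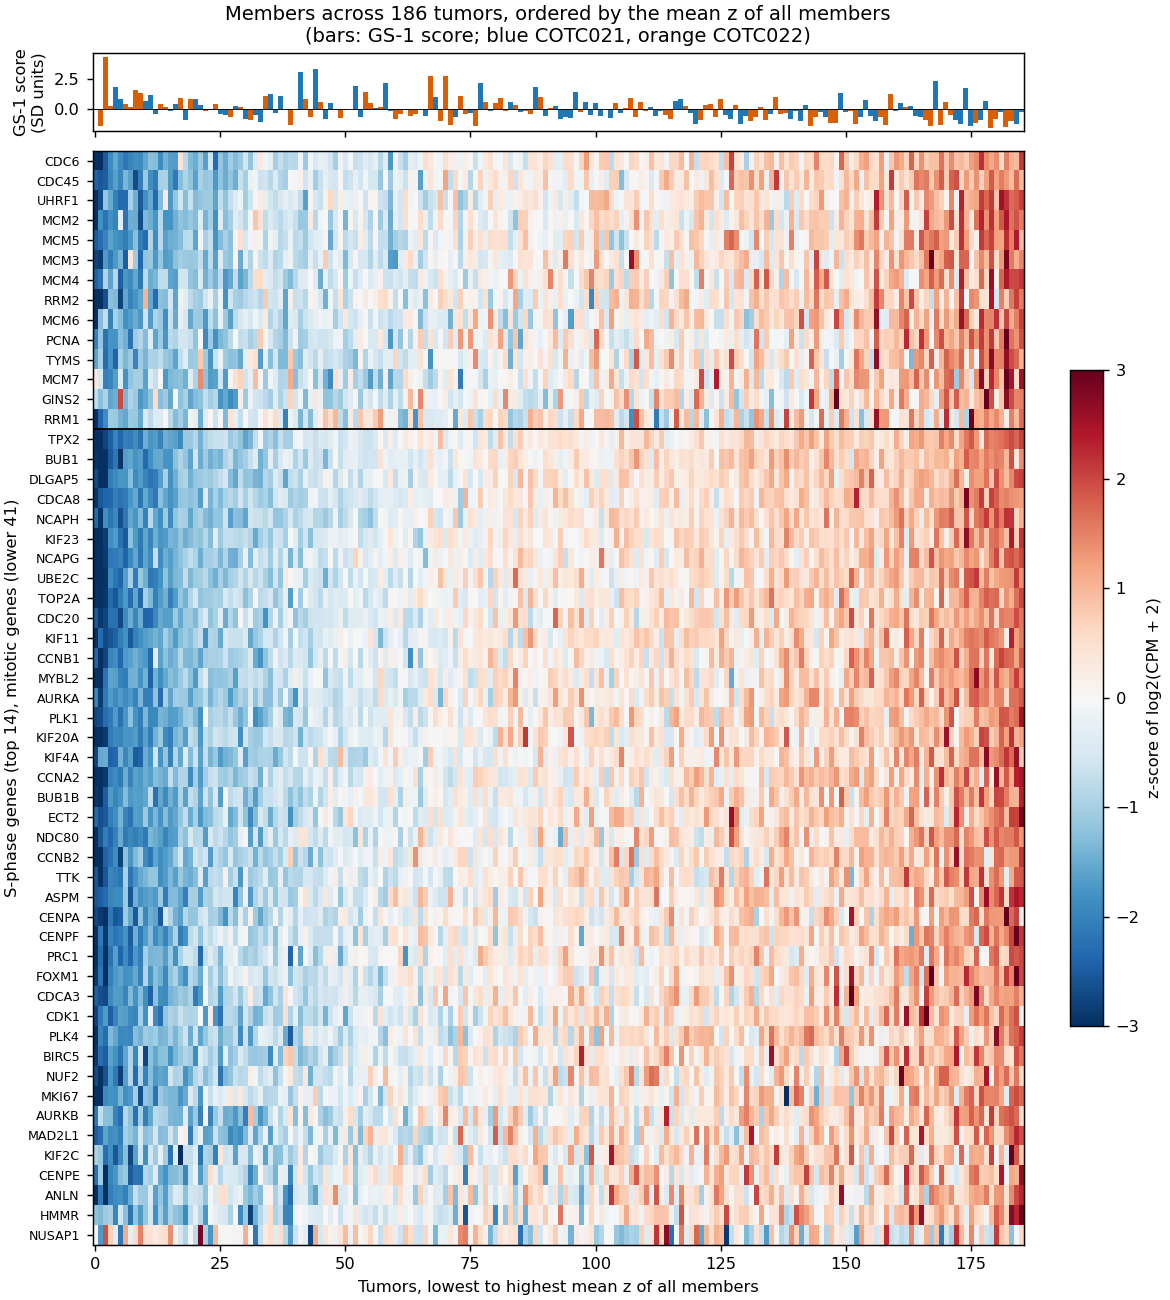
z-scores of log2(CPM + 2) for the 55 genes (rows) in 186 tumors (columns, ordered by the mean over all 55 genes), with the GS-1 score of each tumor as a bar above, blue for COTC021 and orange for COTC022. Most rows pass from blue at the left to red at the right together, and the bottom row, NUSAP1, does not.

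These differences were shared. The first principal component of the 55 z-scores held 68.0% of their variance and the second 3.35%. In 22 tumors at least 50 of the 55 genes were above their own medians, 13 from COTC021 and 9 from COTC022, and in 43 tumors at most 5 were, 21 and 22 from those trials. The lowest tumor (COTC022 replicate 35) had 1 gene above its median, with MKI67 at 10.0 CPM, TOP2A at 31.7 CPM and PCNA, the sliding clamp of DNA polymerase, at 52.6 CPM. In the highest (COTC021 replicate 7), 54 genes were above their medians and the same 3 genes stood at 392, 593 and 281 CPM.

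To set S-phase against mitotic genes, each tumor was given the mean z-score of the 14 and of the 41 genes. Across the 186 tumors the scores had a Pearson r of 0.898 and a Spearman rho of 0.889, given as a description because both come from the same libraries. By trial, r came to 0.880 for COTC021 and 0.913 for COTC022, and by library group to 0.868 for the 50 deeper and 0.912 for the 136 other libraries. The S-phase score minus the mitotic score had an SD of 0.372 and ran from -1.05 to 1.38. In the tumor at its upper end (COTC021 replicate 68), the S-phase score was 1.69 and the mitotic score 0.31. The opposite was seen in COTC021 replicate 43, with an S-phase score of -1.06 and a mitotic score of -0.01. So the phases moved together in most tumors, with single tumors apart.

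**Figure D2:**
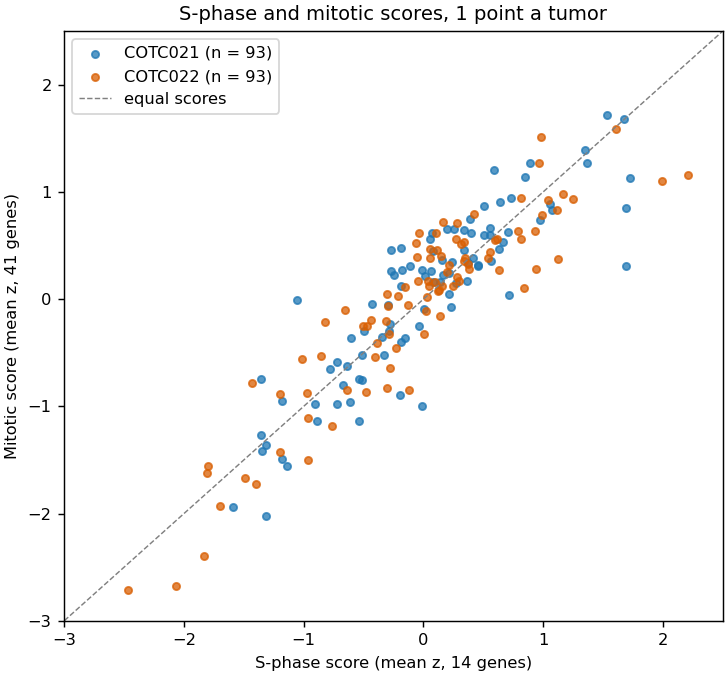
Mitotic score against S-phase score (mean z-scores of 41 and 14 genes), 1 point a tumor, blue for COTC021 and orange for COTC022, with a dashed line where both are equal. The points of both trials lie along the line, with r of 0.880 and 0.913.

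Pairs of genes followed the same pattern. The median r was 0.651 over the 91 pairs of S-phase genes, 0.731 over the 820 pairs of mitotic genes and 0.639 over the 574 mixed pairs. After the trial and the GS-1 score, described below, were taken out, these medians were 0.63, 0.715 and 0.611. The closest pair was CENPF, a kinetochore protein, with ASPM, a spindle pole protein (r = 0.91), followed by BUB1 with the condensin subunit NCAPH (r = 0.905) and the ubiquitin-conjugating enzyme UBE2C with MYBL2 (r = 0.897). Against the mean of the other 54 genes, TPX2, the activator of Aurora A at the spindle, was most alike (r = 0.935), then BUB1 (0.924). Least alike were NUSAP1 (-0.00914), RRM1 (0.542), GINS2 (0.617) and MCM7 (0.627). Most of the genes in that mean are mitotic. Against the other S-phase genes alone, r was 0.537 for RRM1, 0.616 for GINS2 and 0.708 for MCM7.

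Outside the 55, the 10 named genes with the highest r to their mean score were KIF22 (0.911), SPAG5 (0.882), DEPDC1 and ORC1 (both 0.878), DSN1 (0.877), KIFC1, GTSE1 and CKAP2L (each 0.874), and RACGAP1 and SGO1 (both 0.873). An r above 0.5 was found for 491 of 12213 such genes and an r below -0.5 for 133, with a median of -0.0238. The genes of lowest r were the transcriptional repressor ZBTB4 (-0.687), TCP11L2 (-0.669), N4BP2L1 (-0.658) and the Polycomb gene CBX7 (-0.652). CREBRF (-0.646), FAXDC2 (-0.64) and EZH1 (-0.639) came next. RBL2, the p130 protein of the complex that holds cell-cycle genes silent in resting cells, had an r of -0.638. These values describe likeness over 186 tumors that share normalization, with no test.

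The GS-1 score is an immune signature. It is the mean z-score over 27 signature genes, taken as a number for each tumor and scaled to an SD of 1, since the labels put no tumor in a cluster. limma-voom with trial as a covariate then gave, for each gene, its log2 change for an increase of the score by 1 SD, called a slope. A gene was called at a Benjamini-Hochberg adjusted p below 0.05 over all 13422 genes.

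Replication and mitotic genes were lower where the GS-1 score was higher. Of the 55 genes, 53 were called lower, 13 of the 14 S-phase and 40 of the 41 mitotic genes, and 0 were called higher. The edgeR and DESeq2 fits also called 53 lower and 0 higher, but in each these were 14 S-phase and 39 mitotic genes. In limma 1 member, NUSAP1, had a positive slope with an unadjusted p below 0.05. Over all genes tested, limma called 26.2% lower and 22.3% higher, edgeR 29.7% and 20.4%, and DESeq2 30.4% and 21.1%. The members' slopes had a median of -0.23 log2 per SD, whereas the median over all genes was -0.02, and 9.8% of all genes had a slope below the members' median. The change was modest beside the spread between tumors: the score of all 55 genes had an r of -0.323 with the GS-1 score. That r came to -0.261 for COTC021 and -0.387 for COTC022, and to -0.518 for the 50 deeper and -0.235 for the 136 other libraries. Spearman rho was -0.435 in the 50 and -0.305 in the 136. Without the 2 tumors farthest from the median of the members' score in each group, r was -0.39 and -0.298. The 50 include COTC022 replicate 64, described below.

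The largest slope was that of FOXM1, a transcription factor of late cell-cycle genes, at -0.40 ± 0.07 log2 per SD (SE, limma adjusted p = 2.08e-07), a factor of 0.756. CDCA3 followed with -0.37 ± 0.07. TYMS, the thymidylate synthase that is the target of fluorouracil, had -0.35 ± 0.05 (limma adjusted p = 4.44e-10). MCM2 had -0.34 ± 0.06, and the centromeric histone CENPA and CENPF had -0.32 each. The 95% intervals of these 6 slopes ended at -0.19 or lower.

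TOP2A had a slope of -0.27 ± 0.06, PCNA -0.16 ± 0.04 and MKI67 -0.19 ± 0.07 (limma adjusted p = 0.0175). In the replication group the slopes ran from that of TYMS to RRM1 at -0.07 ± 0.03, which was not called (limma adjusted p = 0.0544). All 7 genes of the cyclin group were called, from CDCA3 to CCNA2, the cyclin of S phase and mitotic entry, at -0.20. So were the 4 checkpoint genes, from BUB1 at -0.27 to MAD2L1 at -0.14, and the 6 kinase and chromosomal passenger genes, from CDCA8 at -0.29 to PLK4 at -0.19. Of the 5 centromere and kinetochore genes, NUF2 had the smallest slope, -0.16. The 5 kinesins lay close together, between -0.27 for KIF4A and -0.22 for KIF2C. Among spindle genes, 5 of 6 were called, led by DLGAP5 at -0.30, and the 4 condensin and cytokinesis genes had slopes from -0.27 for ECT2 to -0.19 for ANLN.

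**Figure D3:**
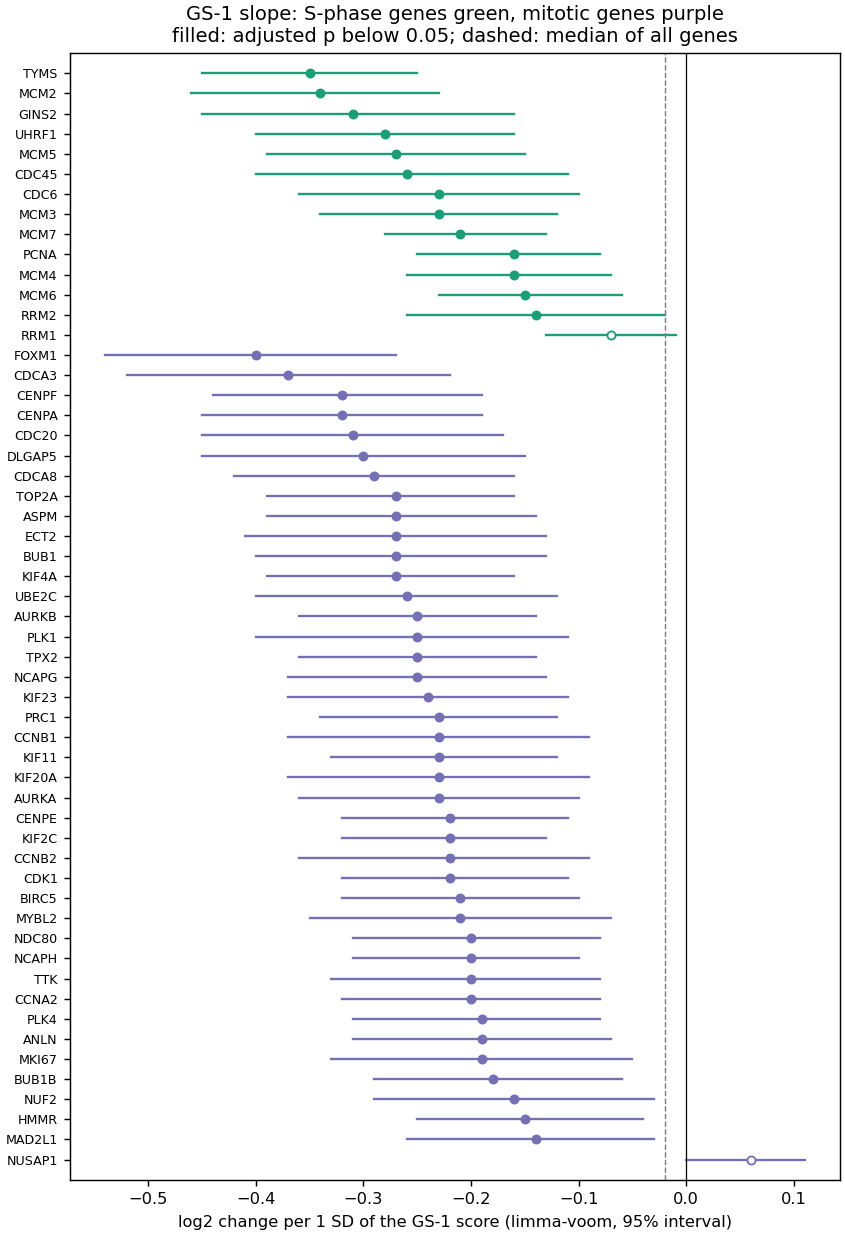
Slope on the GS-1 score (x, log2 change per 1 SD, limma-voom) with its 95% interval for each gene, S-phase genes in green and mitotic genes in purple, filled where the adjusted p is below 0.05 and with a dashed line at the median of all genes. The open points are RRM1 at -0.07 and NUSAP1 at 0.06, and the other 53 points are filled and below 0.

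S-phase and mitotic genes had the same median slope, -0.23, and the S-phase score minus the mitotic score had an r of -0.071 with the GS-1 score. The count of members called lower was 44 in COTC022 alone and 20 in COTC021 alone, with median slopes of -0.28 and -0.19, and over all genes 17.4% and 12.2% were called lower in those fits. The product of slope and trial was called for 0 of the 55 genes, and 2 had an unadjusted p below 0.05 (3.64%, against 2.79% of all genes), MCM7 (-0.18 ± 0.07) and GINS2 (-0.30 ± 0.15). Within the 50 deeper libraries 38 members were called lower, with 9.75% of all genes. Within the other 136 there were 29, with 17.2% of all genes. The product of slope and library group was called for 0 of the 55 genes. In limma 3 had an unadjusted p below 0.05 for it (5.45%, against 7.15% of all genes). The tumor with the highest GS-1 score (COTC022 replicate 64), at 4.37 SD, had a mean z-score over the members of -2.25 and an osteoblast marker score of -2.76. Without it, 43 members were called lower, the median slope was -0.19 and MKI67 was no longer called (slope -0.15, limma adjusted p = 0.0907). Over all genes 20.0% were then called lower and 23.5% higher, so the balance between the directions turned with that tumor.

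Markers of other cells changed with the same score. All 6 macrophage and all 4 tested T cell markers were called higher, with median slopes of 1.04 and 1.53, together with 4 of 5 endothelial markers and 1 of 2 fat markers, FABP4 (1.12 ± 0.19). In contrast 6 of 8 osteoblast markers and 4 of 5 cartilage markers were called lower, with ALPL at -0.92 ± 0.13 and COL2A1 at -1.40 ± 0.38, while SPP1 was called higher (0.36 ± 0.12). The 6 muscle markers ranged from 0.25 to 0.47 and were not called. Of the 4 listed fat markers, ADIPOQ and PLIN1 did not pass the filter, and LPL had a slope of -0.10 ± 0.08 and was not called. The fat score therefore rests on FABP4 and LPL alone. The members' score itself had an r of -0.343 with the macrophage score, -0.398 with fat, -0.307 with endothelium, -0.236 with muscle, -0.208 with T cells and 0.056 with osteoblasts. It was -0.292 with the B and plasma cell score, which is JCHAIN alone, -0.169 with osteoclasts, 0.136 with cartilage and 0.299 with the marrow myeloid score, which is MPO alone, and it was 0.287 with the TMM factor of the library. With the muscle, fat and endothelium scores as further covariates, 36 members were called lower, with 22.3% of all genes, and the median slope was -0.15. The part of macrophages and T cells in the slopes was not tested.

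Other cell-cycle genes were read from a separate list of 93, of which 92 were tested. Of these, 53 were called lower with the GS-1 score and 2 higher, with a median slope of -0.12. The largest were SPC25 of the NDC80 complex (-0.38), the origin recognition subunits ORC6 (-0.37) and ORC1 (-0.33), PKMYT1, an inhibitory kinase of CDK1 (-0.36), and POLD1, the catalytic subunit of DNA polymerase delta (-0.32). The 2 called higher were RBL2 (0.24 ± 0.04) and the CDK inhibitor CDKN1B, or p27 (0.18 ± 0.04). Other inhibitors of the cycle on that list were called lower, CDKN1C (-0.29 ± 0.12), CDKN2C (-0.16 ± 0.06), WEE1 (-0.13 ± 0.05) and the p107 gene RBL1 (-0.12 ± 0.04), and CDKN1A (-0.05 ± 0.06) and CDKN2D (-0.06 ± 0.05) were not called. The score of the 92 genes had an r of 0.955 with that of the 55.

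Between the trials no member was called. Of all genes tested, 0.0149% were called in either direction, which is 2 genes. Median log2 fold change of the members, COTC022 minus COTC021, was -0.08, with 46 of 55 below 0, and the median over all genes was 0.0. MKI67 had the largest difference. It stood at 25.9, 127.7 and 463.6 CPM in the lowest, median and highest tumor of COTC021 and at 5.49, 111.4 and 398.2 CPM in COTC022, so the ranges overlapped. Its log2 fold change was -0.36 ± 0.14 (SE), with a 95% interval from -0.65 to -0.07 and a limma adjusted p of 0.376.

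HMMR, a hyaluronan receptor that also acts at the spindle, had medians of 23.8 and 21.3 CPM in COTC021 and COTC022 and a log2 fold change of -0.33 ± 0.10 (limma adjusted p = 0.235). TOP2A had medians of 211.2 and 178.1 CPM and a log2 fold change of -0.25 ± 0.12 (limma adjusted p = 0.475). These 3 genes had an unadjusted p below 0.05 in limma, and 4 members had it in edgeR and 4 in DESeq2, which also called 0. These shares of the members, 5.45%, 7.27% and 7.27%, were below those of all genes, 9.92%, 13.6% and 13.4%. PCNA and MCM2 differed less, with medians of 120.7 and 121.5 CPM and of 88.9 and 86.9 CPM. Within the 50 deeper libraries the members' median log2 fold change was -0.35, with 53 of 55 below 0, 0 called and 5 at an unadjusted p below 0.05 in limma (6.19% of all genes), and within the other 136 it was -0.02, with 30 below 0, 0 called and 2 at that unadjusted p (14.2% of all genes). The product of trial and library group was called for 0 members, with 3 at an unadjusted p below 0.05 (10.9% of all genes).

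**Figure D4:**
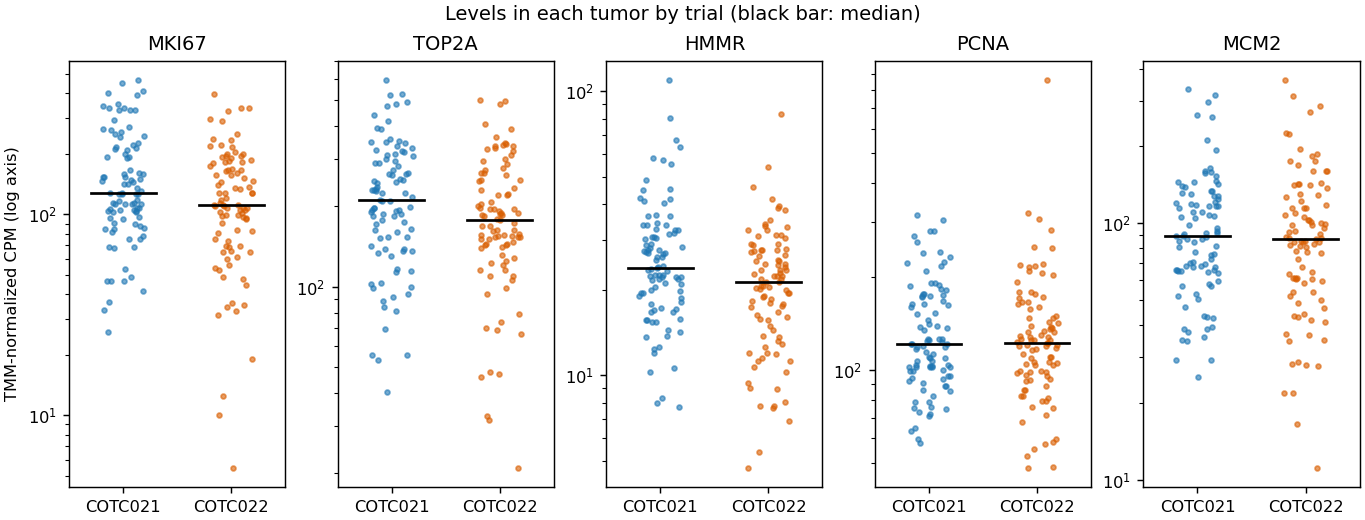
TMM-normalized CPM (log axis) of MKI67, TOP2A, HMMR, PCNA and MCM2 in each tumor of COTC021 (blue, n = 93) and COTC022 (orange, n = 93), with a black bar at the median. The trials overlap for all 5 genes, and single points lie apart, MKI67 at 5.49 CPM and PCNA at 860.3 CPM in COTC022.

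Single genes left the common pattern in single tumors. For each gene its z-score was fitted on the mean of the other 54. The tumors farthest above and farthest below that line were taken, a choice made on the measured values and so not tested. In COTC022 replicate 14, MKI67 stood at 5.49 CPM although 43 of the 55 genes were above their medians. Without that tumor the trial difference of MKI67 was -0.32 (limma adjusted p = 0.448). In COTC022 replicate 2, GINS2, a subunit of the replicative helicase, stood at 109.6 CPM against a median of 7.79 CPM, and in COTC022 replicate 21, PCNA stood at 860.3 CPM against 120.7 CPM. FOXM1 reached 324.8 CPM in COTC022 replicate 78, with a median of 35.3 CPM over all tumors.

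Genes next to these 4 were displaced in the same tumors. Over the 31 tested genes that start within 2 Mb of GINS2 and are no members, the median z-score in that tumor was 3.02, and 21 were above 2. Of the 41 around PCNA, 25 were above 2 in its tumor, with a median of 2.34. The 30 around FOXM1 had a median of 1.69, with 11 above 2. Around MKI67, 11 genes had a median of -1.21 in the tumor where it was lowest, and 3 were below -2. Among the 30 largest departures from the line, the neighbors' median z-score had the sign of the departure in 28. In size it was often small, such as 0.19 around BIRC5 and 0.17 around NCAPG. No such count was made for other genes, so the 28 have no background here. Genes are in general alike to their neighbors: the median r with them was 0.173 over all genes and 0.134 over members. For RRM2 in COTC021 replicate 9 and TTK in COTC022 replicate 90 the neighbors' median went the other way. There RRM2 was high with neighbors at -0.62, and TTK was low with neighbors at 0.31. In COTC021 replicate 69, however, RRM2 was low with neighbors at -1.30. Copy number was not measured in these files, and its part was not tested.

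NUSAP1 stood apart from the other members in its spread, its likeness to them and its slope. It ran from 77.4 to 334.3 CPM around a median of 163.0 CPM, its SD was higher than that of only 7.58% of genes tested, and its slope on the GS-1 score was 0.06 ± 0.03 log2 per SD, not called (limma adjusted p = 0.0721). Its gene model lies on chromosome 30 from 8652709 to 8729631 and overlaps 4 other gene models, with OIP5, a centromere protein gene, among them. Of the 20 genes with the highest r to NUSAP1, 0 were members and 19 lay on chromosome 30, which holds 2.18% of the tested genes that have a position. They were led by LRRC57 (r = 0.601) and the membrane fusion gene SNAP23 (r = 0.571), 1.14 and 1.1 Mb away. The neighbor NDUFAF1, an assembly factor of respiratory complex I, had an r of 0.531, and OIP5 had 0.363. Also among the 20 were POLR2M, GTF2A2, ICE2 and DIS3L, which lie between 14.53 and 22.38 Mb away.

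BUB1B, CCNB2 and KIF23, the other members on chromosome 30, had 12, 14 and 16 members among their 20 most alike genes and 5, 5 and 2 genes of that chromosome. Median r with the 292 tested genes of the chromosome was 0.224 for NUSAP1 and 0.0781, 0.0703 and 0.0442 for those 3. Neighbors are the tested non-members that start within 2 Mb. Over the 51 members with at least 10 neighbors, the median r with them was 0.134. It was 0.173 over all 12474 tested genes with as many. With its 58 neighbors NUSAP1 had a median r of 0.304, a value higher than that of 87.4% of tested genes. CCNB1 (0.318), FOXM1 (0.315) and PLK1 (0.313) were higher still, so likeness to neighbors was not particular to NUSAP1. A row whose model spans other genes can collect their reads, and whether it did here was not tested.

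Some members share reads with other rows. Expected counts that are not whole come from reads divided between rows, and they made up 98.4% of the values of RRM2, 94.1% of CCNB1, 88.7% of CENPA, 57.0% of HMMR, 56.5% of AURKA and 19.9% of MCM6. In 45 of the other members no value was fractional. The levels of those 6 genes are therefore less certain than the rest. The models of FOXM1 and GINS2 overlap the coding genes RHNO1 and GSE1, and 0.0% of their values were fractional. For NUSAP1, 3.76% were.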

How the data were processed

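Messenger RNA of 186 tumors was sequenced from TruSeq Stranded libraries. The authors trimmed reads with cutadapt, aligned them to CanFam4 (GSD_1.0) with STAR 2.7.0f and quantified genes with RSEM 1.3.1. As deposited, the values are raw expected counts, of which 3.07% were not whole, and they were rounded. Strand settings of the counting are not given in the sources used here. The table has 198 columns, and 12 that match no sample label were not used. Trial was the only group the labels give. GS-1 clusters, disease-free interval and survival were not analysed here. The paper's supplement, described as holding the values behind its figures, was not used for them.

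The low-count filter was filterByExpr of edgeR 4.0.16 with a minimum count of 10, a minimum proportion of 0.5 and a large-group size of 5. Counts were TMM-normalized and fitted with limma 3.58.1 voom (R 4.3.3), with edgeR's quasi-likelihood test and DESeq2 1.42.0 as alternatives, and tests were two-sided. Each library is a separate dog. Depth ranged from 6587631 to 27420857 counts, and 10 counts was the lowest value of a member. The limma fit was also run on simulated counts, with genes drawn independently and planted changes larger than the members' slopes. That run does not test the calls reported here. For the GS-1 score, CPM were quantile normalized and taken as log2(CPM + 2). Scores, correlations and figures used Python 3.11.15 with numpy 2.4.6, pandas 2.3.3, scipy 1.17.1 and matplotlib 3.10.9. Gene positions come from RefSeq for GSD_1.0. Correlations and scores over the members carry no p.

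The members, marker lists and tests were chosen with earlier results of these data known. Genes named are MKI67, TOP2A, PCNA and MCM2, the extremes of each role group and of the spread, the largest changes among called genes, the 10 non-members most alike and the marker lists. RRM1, RRM2, HMMR, CDC6, CDC45, MCM5, MCM7, GINS2, NUSAP1, its neighbors and the genes most like it were named after their values were seen. So were the pairs of highest r, the genes of lowest r, the other cell-cycle inhibitors, the single tumors and the members with shared reads. Sequences of promoters and proteins were not used here.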

Additional observations from a re-analysis of the deposited data

How the results depend on the processing

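Under 16 alternatives to the GS-1 fit all 55 genes kept their direction, and 15 also kept their side of the threshold throughout. The 53 genes called lower became 29 in the 136 other libraries and 20 in COTC021 alone, and the cause was not tested. With edgeR's default filter 1 gene was called higher, NUSAP1. Calls over all genes, 6507 in the GS-1 fit, were 3274 in the 50 deeper libraries and 3512 in COTC021 alone. Under 11 alternatives to the trial fit, members called stayed at 0. Calls over all genes, 2 in the trial fit, were 129 with edgeR, 71 with DESeq2, 8 in the 136 libraries and 0 in the 50 libraries, without TMM scaling or with a fold change above 3, and the cause was not tested. The trial difference of PCNA turned to 0.01 with edgeR and 0.00 with DESeq2, and that of MCM2 to 0.02 in the 136 libraries. The r between S-phase and mitotic scores, 0.898 over all tumors, had a confidence interval from 0.866 to 0.923. The r was 0.88 in COTC021, 0.913 in COTC022, 0.868 in the 50 libraries and 0.912 in the 136, all inside that interval. Changes of the median spread were not set against an error of that median. The muscle, fat and endothelium covariates and the fits without COTC022 replicate 14 or 64 were chosen after seeing the data. No paired analysis was possible because the replicate numbers only follow the order of the samples. With a median of 10797162 counts per library, the smallest values of a member rest on 10 counts.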
